A study of Mus musculus with 4 samples.

Results

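The genes described here are 35 cell cycle genes, chosen by symbol from the 23284 gene symbols counted in each sample. They comprise 8 genes of DNA replication, 10 of mitosis, 12 cyclins and cyclin-dependent kinases, 3 kinase inhibitors and 2 transcription factors. They were listed by function with earlier results of these data known, all 35 symbols were present in every sample, and all 35 were among the 15645 genes that passed the filter on low counts and were tested.

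RNA-Seq was performed on GFP-positive cells sorted from E13.5 limbs of C57BL/6J mouse embryos, 2 heterozygous *Osr1* GCE/+ embryos and 2 homozygous *Osr1* GCE/GCE embryos, with 1 sample per embryo. GCE is a knock-in at *Osr1*, a zinc-finger transcription factor gene of limb mesenchyme, that places eGFP and a tamoxifen-inducible Cre recombinase (CreERt2) under control of the locus. Both genotypes carried it: the control cells had 1 GCE allele and 1 intact allele, and the GCE/GCE cells had GCE on both alleles, so no cells without GCE were compared. The sort gate was GFP from that allele in live cells, and no further marker was used.

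A dividing cell copies its DNA in S phase and separates the copies in mitosis, and cyclins, which are made and destroyed in turn, switch on the kinases that drive each step. D cyclins with Cdk4 or Cdk6, and then E cyclins with Cdk2, inactivate the retinoblastoma proteins and so release E2F factors, which turn on replication genes. Mitotic genes are turned on later, by the MuvB complex with B-Myb and Foxm1, and inhibitors such as p21 and p27 hold the kinases back. In the embryonic limb, mesenchymal cells divide while they form connective tissue, tendon and cartilage.

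The promoters of these genes carry short motifs that differed between the replication and the mitosis genes. RefSeq promoter sequences (GRCm38.p6) covering 250 bases before and 50 bases from the transcript start were found for 27 of the 35 genes, 4 of which had 2 windows and counted as holding a motif if either did. They were searched on both strands for the CHR element TTTGAA, for 4 forms of the E2F site (TTTGGCGC, TTTCCCGC, TTTCGCGC and TTTGCCGC) and for the CCAAT box CCAAT. An E2F form lay in 5 of 7 replication genes (*Mcm3*, *Mcm5*, *Mcm6*, *Mcm7* and *Cdc6*) and in 0 of 8 mitosis genes, whereas it lay in 4.33% of the 10988 tested genes that had a promoter sequence. The CHR element was in 6 of 8 mitosis genes (*Mki67*, *Top2a*, *Cdc20*, *Plk1*, *Aurka* and *Bub1b*) and in 1 of 7 replication genes (*Mcm2*), against 14.0% of the tested genes. CCAAT boxes were in 20 of the 27 genes, against 42.5% of the tested genes. Among the cyclins and kinases, *Cdk1* had all 3 motifs, *Ccnb2* had CHR and CCAAT, and *Cdk2* had E2F and CCAAT. None of the 3 was matched in *Cdk4*, *Cdk6*, *Ccne1*, *Birc5*, *Cdkn1a* and *E2f1*. A match is only a run of letters in this window, and binding of a factor was not measured.

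The promoters of 4 genes show these layouts: *Mcm6* as a replication gene with E2F forms, *Cdk1* with all 3 motifs, and *Ccnb2* and *Cdc20* with CHR and CCAAT. Each stretch runs 5′ to 3′ on the minus strand, on which all 4 genes lie, from 150 bases before the transcript start to 20 bases from it. They lie at chr1:128359686-128359855, chr10:69352893-69353062, chr9:70421535-70421704 and chr4:118437324-118437493, respectively. Capitals mark the motifs on either strand, so that ATTGG is CCAAT read on the other strand, and the 12 capitals in *Mcm6* are a pair of overlapping E2F forms.
Mcm6: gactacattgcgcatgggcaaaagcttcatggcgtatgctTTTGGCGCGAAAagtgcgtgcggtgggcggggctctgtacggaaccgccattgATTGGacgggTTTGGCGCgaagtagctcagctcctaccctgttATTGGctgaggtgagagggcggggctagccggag
Cdk1: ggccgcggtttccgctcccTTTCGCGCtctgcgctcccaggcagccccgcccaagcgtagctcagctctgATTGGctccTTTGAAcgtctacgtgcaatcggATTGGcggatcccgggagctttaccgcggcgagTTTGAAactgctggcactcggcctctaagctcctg
Ccnb2: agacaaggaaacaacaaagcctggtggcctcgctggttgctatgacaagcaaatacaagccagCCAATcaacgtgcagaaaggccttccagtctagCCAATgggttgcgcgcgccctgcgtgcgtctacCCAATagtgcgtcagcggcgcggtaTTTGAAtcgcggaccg
Cdc20: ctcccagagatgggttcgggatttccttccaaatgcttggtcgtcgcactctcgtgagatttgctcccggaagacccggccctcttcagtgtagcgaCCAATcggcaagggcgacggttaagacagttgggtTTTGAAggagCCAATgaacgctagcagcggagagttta

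**Figure D1:**
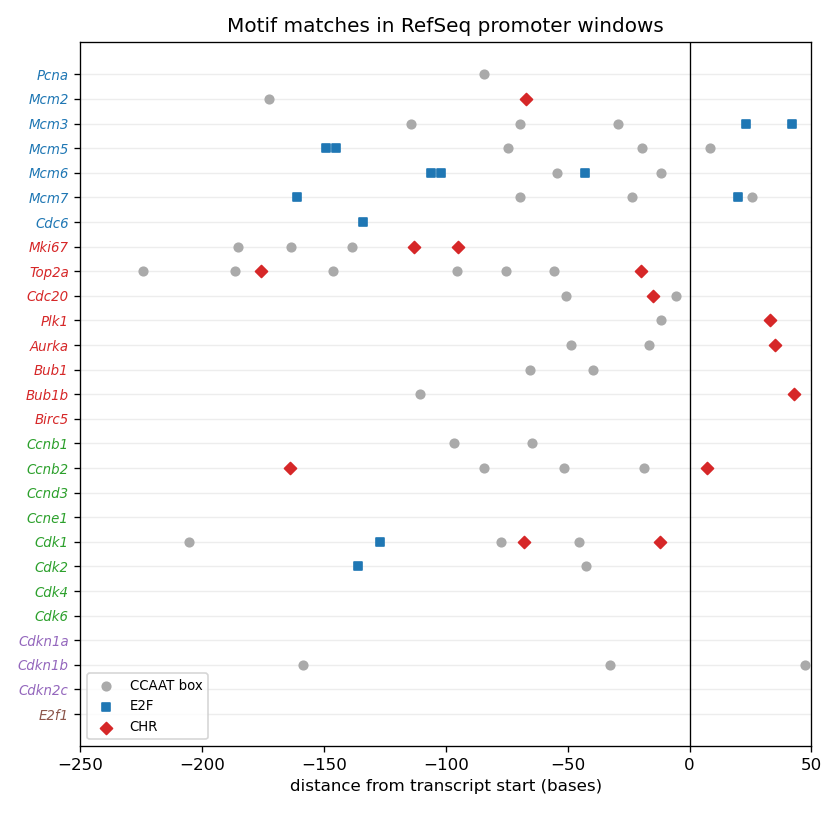
Motif matches in the promoter sequences of 27 cell cycle genes, coloured by role. The x axis is the distance of the motif's centre from the transcript start in bases, and each point is 1 match on either strand in the gene's first RefSeq window. E2F forms (blue squares) are seen in *Mcm3*, *Mcm5*, *Mcm6*, *Mcm7*, *Cdc6*, *Cdk1* and *Cdk2*, and CHR elements (red diamonds) mainly in the mitosis genes. *Ccnd3* and *Cdkn2c* have their CCAAT matches in a second window, which is not plotted.

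The libraries held between 52121596 and 61402140 counts, and levels are given as CPM, the counts of a gene relative to the size of its library, after scaling by edgeR's TMM factors. *Osr1* had 81.9 and 79.1 CPM in the GCE/+ samples, against 11.9 and 13.9 CPM in the GCE/GCE samples, a log2 fold change of -2.64 (SE 0.106, Benjamini-Hochberg adjusted p = 5.94e-05 by edgeR). The 9 limb mesenchyme markers looked up were all tested and summed to 20471 and 18762 CPM in the GCE/+ samples, against 18028 and 15862 CPM in the GCE/GCE samples, with 7 of 9 log2 fold changes negative. None of them was called by edgeR and 1 was called by DESeq2. Macrophage and cartilage markers differed between the genotypes. The 13 tested macrophage markers summed to 429 and 443 CPM in the GCE/+ samples, against 273 and 196 CPM in the GCE/GCE samples, with 10 called lower. The 9 endothelial markers summed to 135 and 108 against 107 and 89.6 CPM, with none called by edgeR and 1 by DESeq2. Of them, 8 had negative log2 fold changes. By edgeR, 5 were lower at an unadjusted p under 0.05, a threshold that 10.5% of all genes tested passed. The 11 cartilage markers summed to 681 and 1067 against 1488 and 1628 CPM, with 5 called higher. No gene of the skeletal muscle, erythroid, epidermis or Schwann cell lists was called by edgeR, and DESeq2 called 1, in the skeletal muscle list. No marker of the mesenchyme, macrophage, endothelial and cartilage lists was at 0 in all samples, and their part in the cell cycle values was not tested. GCE/GCE replicate 1 stood apart in *Xist*, the RNA of the inactive X chromosome, with 1142 CPM against at most 2.63 CPM in the other 3 samples.

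No cell cycle gene passed the test between the genotypes. At an adjusted p under 0.1, edgeR's quasi-likelihood test called 0 of the 35 genes, and the lowest adjusted p among them was 0.406. Over all genes tested, 1.82% were called, 285 of 15645. At an unadjusted p under 0.05 there was 1 of the 35, *Cdk6*, against 10.5% of all genes tested. DESeq2 also called 0 of the 35, against 3.35% of the genes to which it gave an adjusted p. The 35 genes took 0.474% and 0.495% of all reads in the GCE/+ samples, against 0.483% and 0.49% in the GCE/GCE samples, so the ranges of the genotypes overlapped. In bulk RNA, fewer cycling cells and less of an RNA per cell cannot be told apart.

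**Figure D2:**
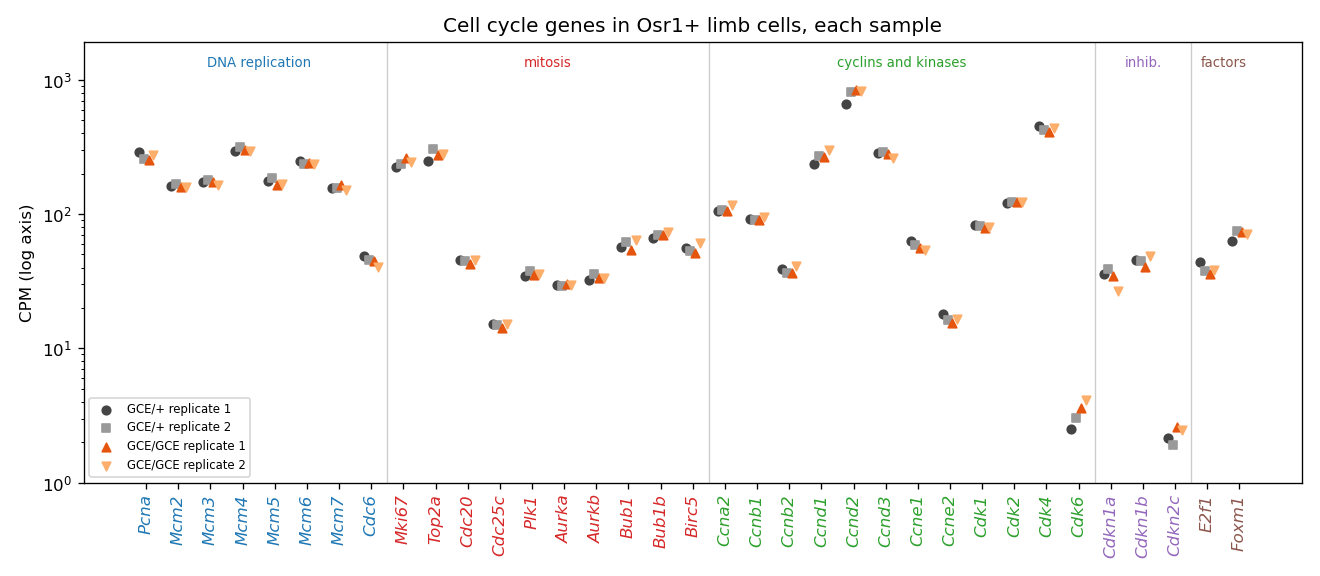
CPM of each cell cycle gene in each of the 4 samples, on a log axis, with genes grouped by role. Grey symbols are the 2 GCE/+ samples and orange symbols the 2 GCE/GCE samples, and the values run from 1.91 CPM (*Cdkn2c*) to 847 CPM (*Ccnd2*). For most genes the symbols of both genotypes overlap.

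The differences were small against the data as a whole. The median log2 fold change of the 35 genes, GCE/GCE against GCE/+, was -0.02, beside 0.0033 over all genes tested. The median of its absolute size was 0.05, beside 0.10 over all genes. It lay within 0.1 of 0 for 25 of the 35 genes, as it did for 48.4% of all genes. The standard errors were smaller too, with a median of 0.093 for the 35 genes against 0.122 over all genes tested. How much of the smaller differences goes with this lower noise was not tested. Of the 35 log2 fold changes, 15 were positive and 20 negative. Both GCE/GCE samples lay above both GCE/+ samples in 5 genes and below them in 8, where 19.2% and 19.1% of all genes tested did so, and the samples overlapped in 22. The difference between the samples of 1 genotype had a median size of 0.08 on the log2 scale in either genotype, and the difference between genotypes exceeded both in 8 genes. That count was not made over all genes tested, so whether it is high or low for these data is not known.

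The intervals show how large a difference could still be present. A 95% interval was computed for each log2 fold change, with a standard error taken from the F statistic of edgeR's quasi-likelihood test. All 35 intervals lay within 1 of 0, 31 within 0.4 and 24 within 0.3. The lowest bound was -0.59, for *Cdkn1a*, and the highest 0.92, for *Cdk6*. Leaving aside *Cdk6*, *Cdkn2c* and *Cdkn1a*, a choice made after their values were seen, the bounds of the other 32 genes ran from -0.38 (*E2f1*) to 0.45 (*Ccnd2*), which is 0.768 to 1.37 times the GCE/+ level. With 2 embryos per genotype, a true difference of any size inside a gene's interval remains compatible with the data.

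**Figure D3:**
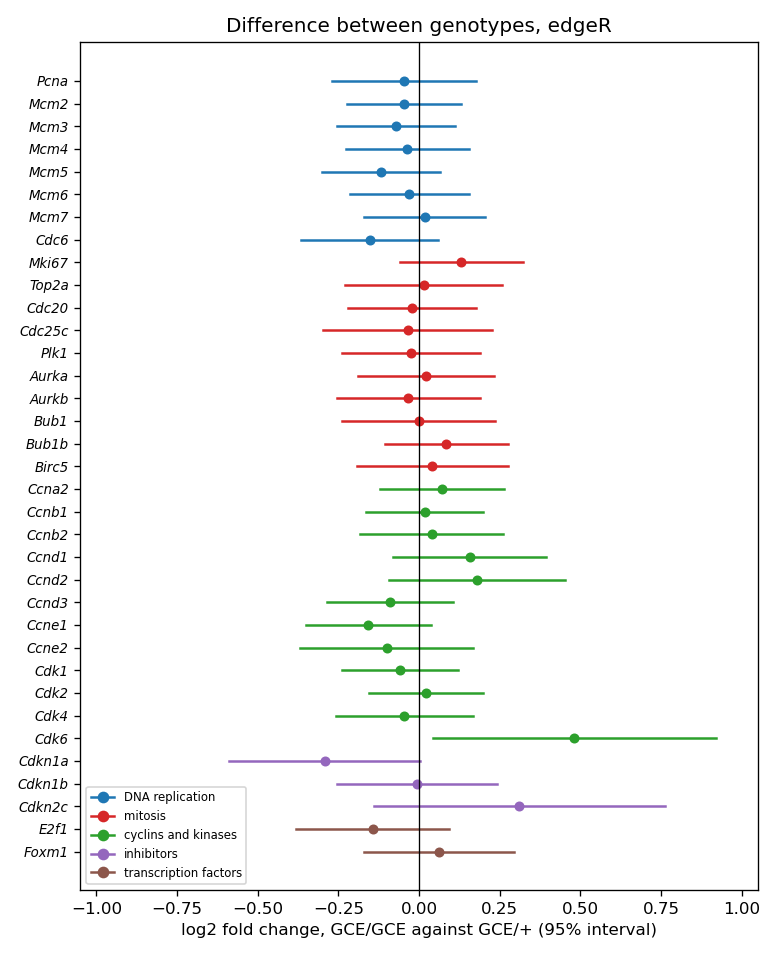
Log2 fold change of each cell cycle gene, GCE/GCE against GCE/+, with its 95% interval from edgeR's quasi-likelihood test, coloured by role. The interval includes 0 for 34 of the 35 genes, and that of *Cdk6* runs from 0.04 to 0.92.

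**Figure D4:**
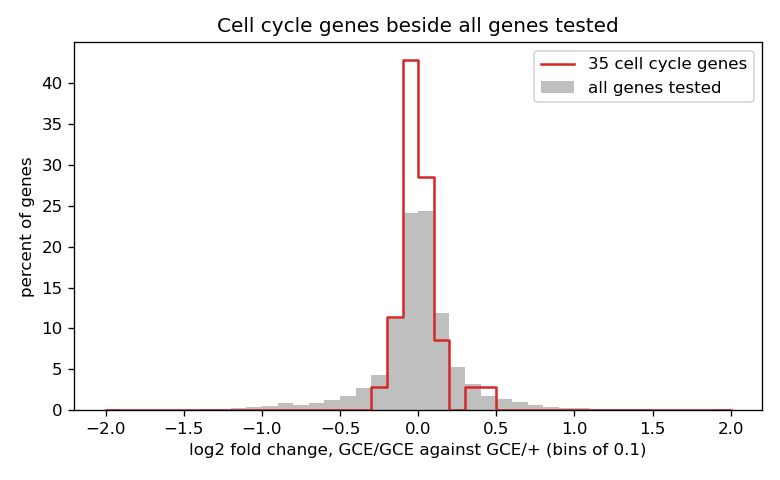
Share of genes in each log2 fold change bin of width 0.1, in percent, for all 15645 genes tested (grey bars) and for the 35 cell cycle genes (red line). The cell cycle genes gather near 0, with medians of absolute size 0.05 and 0.10 for the cell cycle genes and all genes.

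None of the 8 DNA replication genes passed the test, and 4 of them overlapped between the genotypes. They comprise the sliding clamp *Pcna*, 6 subunits of the Mcm helicase that opens the DNA at origins, and *Cdc6*, which loads that helicase. Together they summed to 1552 and 1538 CPM in the GCE/+ samples, against 1495 and 1491 CPM in the GCE/GCE samples, so the genotypes did not overlap. The log2 fold change was negative in 7 of the 8, with a median of -0.05, and no adjusted p was under 0.69. Both GCE/GCE samples were below both GCE/+ samples in *Mcm2*, *Mcm3*, *Mcm5* and *Cdc6*, 4 of the 8. Of all genes tested, 19.1% were lower in this way, and whether the replication genes depart from that share was not tested. *Cdc6* had 48.8 and 45.5 CPM in the GCE/+ samples, against 44.4 and 40.4 CPM in the GCE/GCE samples, the largest difference of the group, at -0.15 (95% interval -0.37 to 0.06). *Mcm5* had 175 and 185 against 164 and 169 CPM, a log2 fold change of -0.12 (-0.30 to 0.07). In both genes the difference between the genotypes was larger than that between the samples of either genotype. *Pcna* had 292 and 255 CPM in the GCE/+ samples, against 253 and 276 CPM in the GCE/GCE samples. Its samples overlapped, and GCE/+ replicate 1 was the highest of the 4. *Mcm4* and *Mcm6* also overlapped, with log2 fold changes of -0.04 and -0.03, and *Mcm7*, the only positive one of the group, had 0.02.

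The 10 mitosis genes had nearly equal levels. They summed to 809 and 887 CPM in the GCE/+ samples, against 868 and 885 CPM in the GCE/GCE samples, and the genotypes overlapped. Of their log2 fold changes, 5 were positive and 5 negative, with a median of 0.01 and a range from -0.04 (*Cdc25c*) to 0.13 (*Mki67*). *Mki67*, which encodes the proliferation marker Ki-67, had 225 and 237 CPM in the GCE/+ samples, against 260.0 and 245 CPM in the GCE/GCE samples, with a 95% interval of -0.06 to 0.32. Both GCE/GCE samples were higher, yet the value was -0.01 once a trend on transcript length in each sample was taken out, an alternative chosen after the data were examined. *Bub1b*, a spindle checkpoint kinase, was the other gene with both GCE/GCE samples higher, at 66.1 and 69.6 against 69.8 and 74.1 CPM. *Top2a*, the topoisomerase that untangles sister chromatids, had 250 and 304 CPM in the GCE/+ samples, against 277 and 282 CPM in the GCE/GCE samples. The GCE/GCE values lay between those of GCE/+, whose 2 samples differed by 0.28 on the log2 scale. The mitotic kinases *Plk1*, *Aurka* and *Aurkb* and the checkpoint kinase *Bub1* had log2 fold changes from -0.03 to 0.02. *Cdc20*, which activates the anaphase-promoting complex, had 45.2 and 44.4 against 42.7 and 45.6 CPM. *Cdc25c*, a phosphatase that activates Cdk1, and *Birc5*, which encodes survivin, overlapped as well.

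Among the 12 cyclins and kinases, log2 fold changes ran from -0.16 (*Ccne1*) to 0.48 (*Cdk6*), 7 of them positive, with a median of 0.02. *Ccnd2* had 663 and 809 CPM in the GCE/+ samples, against 847 and 821 CPM in the GCE/GCE samples, a log2 fold change of 0.18 (95% interval -0.09 to 0.45). Both GCE/GCE samples were higher, but GCE/+ replicate 2 was nearer to them than to GCE/+ replicate 1. *Ccnd1* had 237 and 271 against 264 and 302 CPM, a log2 fold change of 0.16 (-0.08 to 0.39), with overlap. *Ccnd3* had 286 and 291 against 283 and 260.0 CPM, a log2 fold change of -0.09 (-0.29 to 0.11), with both GCE/GCE samples lower. The 3 D cyclins thus did not share a sign, and none passed the test.

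*Cdk6*, a kinase partner of the D cyclins (chr5:3341485-3531008 in GRCm38), was the 1 cell cycle gene at an unadjusted p under 0.05. It had 2.51 and 3.0 CPM in the GCE/+ samples, against 3.58 and 4.10 CPM in the GCE/GCE samples, from 153 and 157 against 208 and 251 counts. Each GCE/GCE sample was higher. The log2 fold change was 0.48 (SE 0.191, Benjamini-Hochberg adjusted p = 0.406 by edgeR), and it did not pass the threshold. With the trend on transcript length taken out it was 0.33, with an unadjusted p above 0.05. *Cdk4*, the other partner, had 452 and 423 against 407 and 441 CPM, with overlap.

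*Ccne1*, an E cyclin, had 63.2 and 59.3 CPM in the GCE/+ samples, against 56.1 and 53.8 CPM in the GCE/GCE samples. The 2 GCE/GCE samples were lower, and the log2 fold change was -0.16 (95% interval -0.35 to 0.04). *Ccne2* had 18.0 and 16.2 against 15.4 and 16.5 CPM, with overlap, and *Cdk2*, the kinase of the E cyclins, had log2 fold change 0.02. The S and M phase cyclins *Ccna2*, *Ccnb1* and *Ccnb2* overlapped between genotypes, with 0.07, 0.02 and 0.04. *Cdk1*, their kinase in mitosis, had 83.4 and 81.3 against 78.3 and 79.7 CPM, a log2 fold change of -0.06 (-0.24 to 0.12).

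The 3 inhibitors had values of different sign, none past the threshold. *Cdkn1a*, which encodes p21, a target of p53 (chr17:29090976-29100727 in GRCm38), had 35.6 and 39.3 CPM in the GCE/+ samples, against 34.3 and 26.8 CPM in the GCE/GCE samples. Each GCE/GCE sample was lower, and GCE/GCE replicate 2 set most of the gap. The log2 fold change was -0.29 (95% interval -0.59 to 0.0028, Benjamini-Hochberg adjusted p = 0.482 by edgeR). Without GCE/GCE replicate 1 it was -0.49 with an adjusted p of 0.0716, and without GCE/GCE replicate 2 it was -0.12 with an adjusted p of 1. *Cdkn1b*, which encodes p27, had 45.6 and 44.3 against 40.4 and 49.1 CPM, and both GCE/+ values lay between the GCE/GCE values. *Cdkn2c*, an inhibitor of Cdk4 and Cdk6, had only 2.15 and 1.91 CPM in the GCE/+ samples, against 2.58 and 2.47 CPM in the GCE/GCE samples. The 2 GCE/GCE samples were higher, at a log2 fold change of 0.31 with a wide interval, -0.14 to 0.76.

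Of the transcription factors, *E2f1*, an activator of replication genes, had 44.0 and 37.7 CPM in the GCE/+ samples, against 36.0 and 38.1 CPM in the GCE/GCE samples, a log2 fold change of -0.14 (95% interval -0.38 to 0.09). GCE/+ replicate 1 stood above the other samples, which overlapped. *Foxm1*, a factor of mitotic genes, had 62.6 and 75.2 against 72.9 and 71.0 CPM, a log2 fold change of 0.06.

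Levels of different genes were compared as mean CPM per kilobase of exon. *Cdk4* was the highest in GCE/+ cells, with 213 CPM per kilobase, followed by *Pcna* with 180, *Ccnd3* with 118 and *Ccnd2* with 110. The lowest were *Cdkn2c* with 0.756 and *Cdk6* with 0.239. *Cdk4* was therefore 891 times as abundant as *Cdk6* in GCE/+ cells and 620 times in GCE/GCE cells. Per sample that ratio was 1011 and 791 in the GCE/+ samples, against 638 and 604 in the GCE/GCE samples, and its denominator rests on the few counts of *Cdk6*. *Ccnd2* made up 35.4% and 38.6% of the D cyclin CPM per kilobase in the GCE/+ samples, against 40.4% and 39.5% in the GCE/GCE samples. *Ccnd3* led in the GCE/+ mean, with 39.9% against 37.1% for *Ccnd2*, and *Ccnd2* led in the GCE/GCE mean, with 40.0% against 35.7%. In GCE/+ replicate 2 alone, *Ccnd2* was above *Ccnd3*, with 38.6% against 38.1%. The order of the GCE/+ means therefore rests on replicate 1, and the change of order was not tested. These ratios and shares keep the trend on transcript length. With that trend taken out, the log2 fold change was 0.33 in *Cdk6* and -0.0005 in *Cdk4*. It was 0.11 in *Ccnd2*, against 0.18 with the trend kept, and -0.06 in *Ccnd3*, against -0.09.

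**Figure D5:**
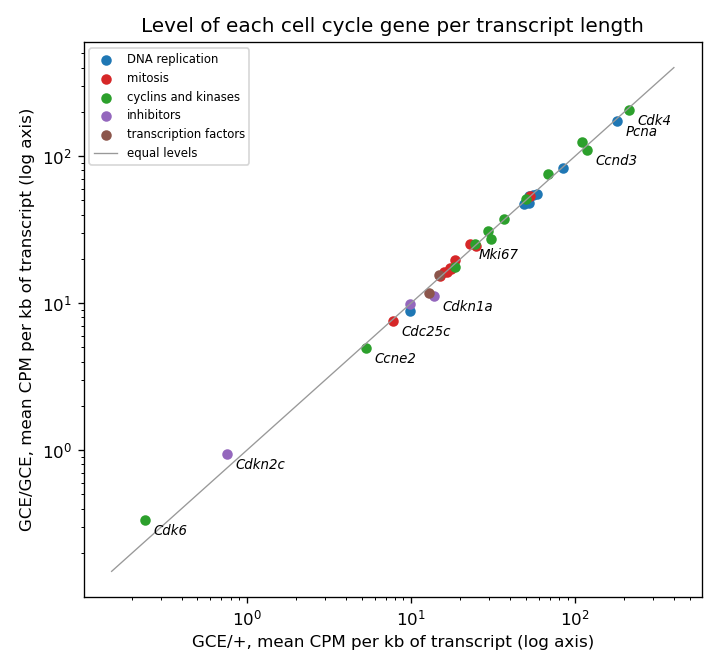
Mean CPM per kilobase of transcript of each cell cycle gene in GCE/+ cells (x) and GCE/GCE cells (y), both on log axes, coloured by role, with a line of equal levels. All genes lie near the line, from *Cdk6* with 0.239 and 0.333 to *Cdk4* with 213 and 207 CPM per kilobase.

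Exons of 15 of the 35 genes overlap exons of other genes in the GENCODE vM21 annotation. The share was largest in *Ccnd1*, with 23.4% of its exon bases, *Cdk4*, with 19.7%, and *Ccne2*, with 17.4%. Each shared them with a gene on the opposite strand. These shares cover all transcripts of that annotation. The exon lengths used for levels came from its basic set, and the reads were counted on mm9 gene models, so the shares there can differ. The library kit does not mark strand, so reads in these stretches cannot be assigned to 1 gene with certainty.

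Further genes of the same processes were read from 7 lists, of which 157 of 159 genes were tested. edgeR's quasi-likelihood test called 0 of the 157 at an adjusted p under 0.1, with 0.216 as the lowest value, and DESeq2 called 0. At an unadjusted p under 0.05 there were 7, which is 4.46%, beside 10.5% of all genes tested. Of the 40 genes of origin licensing and the replisome, 9 had positive and 31 negative log2 fold changes. Their median was -0.06, beside 0.0033 over all genes tested, or -0.02 with the trend on transcript length taken out. Signs were not counted over all genes tested, and the split of signs in this and the other lists was not tested. *Gins2*, a subunit of the replicative helicase, had 40.0 and 35 against 32.5 and 30.8 CPM, a log2 fold change of -0.25 (SE 0.102). *Pole*, the leading-strand polymerase, had the largest positive value, 0.19. The summed level of the list was 2037 and 1984 CPM in the GCE/+ samples, against 1917 and 1978 CPM in the GCE/GCE samples.

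The 44 genes of spindle, kinetochore and cytokinesis had a median of 0.01, with 29 positive. Their extremes were *Pttg1*, the securin that guards sister chromatid separation, at -0.45, and *Cit*, a kinase of cytokinesis, at 0.23. *Pttg1* had 40.8 and 36.6 CPM in the GCE/+ samples, against 34.6 and 22.2 CPM in the GCE/GCE samples, so GCE/GCE replicate 2 was well below the rest. Of 19 condensin and cohesin genes 15 were positive, with a median of 0.06, or 0.03 with the trend on transcript length taken out. *Nipbl*, the cohesin loader, had 0.25, or 0.13 with that trend taken out. *Cdca5*, which encodes sororin, had -0.15, or -0.10 with the trend taken out. The 18 genes of Rb, E2F and MuvB had a median of -0.04, from -0.15 (*E2f6*) to 0.18 (*Tfdp2*). The 7 genes of nucleotide supply ran from -0.09 (*Tk1*) to 0.04 (*Dck*), and the 13 tested other cyclin-kinase regulators from -0.19 (*Cdkn2d*) to 0.14 (*Fbxw7*). The 16 p53 targets had a median of -0.03 and the widest spread, with *Perp*, a membrane protein of cell death, at 0.65 from 1.90 and 1.85 against 2.79 and 3.12 CPM. *Phlda3*, an inhibitor of Akt, had -0.38, from 15.6 and 13.9 against 11.7 and 10.9 CPM. Of the 16 p53 targets, 3 passed the unadjusted threshold, 2 of them higher and 1 lower, and none the adjusted one. In *Perp* and *Phlda3* the genotypes did not overlap, as in 19.2% (higher) and 19.1% (lower) of all genes tested.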

How the data were processed

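The authors deposited raw counts per gene for each sample; per the labels and methods, 50-bp paired-end reads from TruSeq v2 libraries were mapped to mm9 with TopHat2 and counted with HTSeq. Coordinates and exon lengths here come from GRCm38, another build, matched by symbol. Genes were filtered with filterByExpr, scaled by TMM and tested with edgeR 4.0.16 (glmQLFit with legacy = FALSE, R 4.3.3), as a two-sided comparison of GCE/GCE with GCE/+, with the study's threshold of 0.1 on the Benjamini-Hochberg adjusted p. That estimation option was taken up after the default of this edgeR version had been run, to match an earlier analysis of these data; the default is given as an alternative. Intervals used 8.38 degrees of freedom. Simulated data were used to check the fits. DESeq2 1.42.0, other scalings and filters, a robust fit, a replicate block, transcript length offsets and each sample left out were alternatives. All 35 genes, the extremes of each list and *Osr1* were named by rule. The members and lists were chosen with earlier results of these data known. Samples came from separate embryos.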

Additional observations from a re-analysis of the deposited data

How the results depend on the processing

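In the 10 settings other than leaving out a sample, 0 of the 35 cell cycle genes and 0 of the 157 further genes were called. The edgeR default, legacy quasi-likelihood estimation, and the transcript length offsets were chosen after the data were examined. Over all genes, 503 were called with DESeq2, 130 at an adjusted p under 0.05, 127 without the filter on low counts and 279 with the edgeR default. At an unadjusted p under 0.05, 2 cell cycle genes passed with the robust fit, 2 with upper quartile normalization and 0 with the length offsets.

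No shared deviation of same-numbered samples was seen: their deviations had a correlation of -0.00403 over 11180 genes. This value cannot show whether same-numbered samples were littermates or handled together, which the labels do not state. With the replicate block 290 genes were called, 0 of them cell cycle genes.

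With the length offsets the median of the 35 genes was 0.0045, and the sign turned in *Pcna* (0.0018), *Mki67* (-0.01), *Top2a* (-0.02), *Cdc20* (0.03), *Cdc25c* (0.01), *Plk1* (0.01), *Aurkb* (0.01) and *Bub1* (0.0045). With upper quartile normalization it turned in *Top2a* (-0.0013) and *Ccnb1* (-0.0002), and the medians of the replication genes and the transcription factors were both -0.06. The causes were not tested.

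With each sample left out in turn, the lone sample is assumed to vary like the other genotype. Between 199 (without GCE/+ replicate 1) and 961 genes (without GCE/+ replicate 2) were then called, with 747 without GCE/GCE replicate 1. Of the cell cycle genes 0 to 1 were called, the 1 being *Cdkn1a* without GCE/GCE replicate 1 (adjusted p = 0.0716, edgeR), and its value ran from -0.49 to -0.12. At an unadjusted p under 0.05, 0 (without GCE/GCE replicate 2) to 6 (without GCE/+ replicate 2) passed. Of the 157 further genes 0 to 7 were called, 7 without GCE/+ replicate 2 and 2 without GCE/GCE replicate 1. The median ran from -0.03 to 0.01 for the 35 genes, from -0.08 to -0.04 for replication, from -0.03 to 0.05 for mitosis, from -0.03 to 0.03 for cyclins and kinases, from -0.12 to 0.12 for inhibitors and from -0.05 to -0.03 for the transcription factors. The sign turned in 17 genes. The log2 fold change ran from -0.14 to 0.05 in *Pcna*, -0.08 to 0.0027 in *Mcm4*, -0.05 to 0.08 in *Mcm7*, -0.13 to 0.16 in *Top2a*, -0.07 to 0.02 in *Cdc20*, -0.08 to 0.01 in *Cdc25c*, -0.10 to 0.04 in *Plk1*, -0.12 to 0.05 in *Aurkb*, -0.12 to 0.10 in *Bub1* and -0.09 to 0.15 in *Birc5*. It ran from -0.0017 to 0.13 in *Ccna2*, -0.02 to 0.05 in *Ccnb1*, -0.04 to 0.11 in *Ccnb2*, -0.0025 to 0.04 in *Cdk2*, -0.10 to 0.0042 in *Cdk4*, -0.15 to 0.12 in *Cdkn1b* and -0.07 to 0.20 in *Foxm1*. The signs of these genes are therefore not fixed by 2 samples per genotype.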

Other observations

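A pair of cohesin subunits known from meiosis differed between the genotypes, while the 5 cohesin genes of dividing cells set beside them did not pass the test. These genes were chosen after their values were seen. *Rec8* had 1.97 and 0.899 CPM in the GCE/+ samples, against 11.6 and 11.3 CPM in the GCE/GCE samples, a log2 fold change of 2.97 (SE 0.289, Benjamini-Hochberg adjusted p = 0.00937 by edgeR). *Stag3* had 6.37 and 6.44 against 10 and 11.3 CPM, with 0.73 as its log2 fold change (SE 0.140, Benjamini-Hochberg adjusted p = 0.0649 by edgeR). In both genes the GCE/GCE samples lay above the GCE/+ samples. *Rec8* was called in all 13 other fits, those without 1 sample included, with an adjusted p of at most 0.0494. *Stag3* was called in 10 of the 13, and its adjusted p ran from 0.00438 to 0.15, being above 0.1 without the filter on low counts, without GCE/+ replicate 1 and without GCE/GCE replicate 2. *Rad21*, the counterpart of *Rec8* in mitosis, had 281 and 312 against 312 and 324 CPM, and *Stag1* and *Stag2*, those of *Stag3*, had log2 fold changes of 0.04 and 0.09. Of the other meiotic genes looked up, *Smc1b*, also a cohesin subunit of meiosis, was not among the genes tested. *Sycp2*, *Sycp3* and *Dmc1* were at or below 2.83 CPM in every sample and none was called (adjusted p from 0.644 to 0.957, edgeR).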
